A study of Mus musculus with 6 samples.

Results

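The genes of MHC class I and II antigen presentation were examined in bulk-seq of the spinal cord of SMA mice. They are H2-K1 and H2-D1 (class I heavy chains), B2m (the light chain), Tap1 and Tap2 (the peptide transporter), H2-Aa, H2-Ab1 and H2-Eb1 (class II chains) and Cd74 (the invariant chain). They were chosen by name, and all 9 were found among the 25576 genes listed in the files. Spinal cord of FVB mice at postnatal day 4 gave 6 libraries. The SMA group of 3 libraries is mSmn-/- with hSMN22tg/0, a severe model that lacks functional mouse Smn and carries the human SMN2 transgene. The control group of 3 libraries is mSmn+/- with the same hSMN22tg/0 transgene, so it also carries a knockout allele. The study describes the bulk-seq as triplicates with n = 1 per group, so p-values measure only the spread between libraries, which may be technical. Values are FPKM, which correct the fragments of a gene for exon length and for the mapped fragments of the library.

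Class I molecules are built from a heavy chain and B2m and carry peptides of cytosolic proteins to the cell surface. Tap1 and Tap2 form the transporter that moves these peptides into the endoplasmic reticulum, where a loading complex places them on the heavy chain. Class II molecules are pairs of an alpha and a beta chain that are loaded in endosomes after Cd74 is cut away, and they are made mainly by dendritic cells, B cells and macrophages. In the healthy spinal cord class II is scarce, while class I is found on endothelial cells and, at low levels, on glia and neurons.

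Class I genes and B2m share an upstream control region, so the bases before the start of H2-K1 and B2m are shown, with those of the class II gene H2-Aa and of H2-Q10, a secreted class I molecule made in the liver whose values stand apart below. They are the reference bases of the C57BL/6J mouse (GRCm38.p6, from RefSeq), from 200 to 2 bases before the start, and FVB mice carry another MHC haplotype whose bases may differ. Capitals mark matches, on either strand, to the Y box CCAAT, the X2 core TGACG, the NF-kB type motif GGGATTCCC and the interferon response core AANNGAAA. H2-K1 is at chr17:34000349-34000547 on the minus strand, H2-Q10 at chr17:35469889-35470087 on the plus strand, B2m at chr2:122147487-122147685 on the plus strand and H2-Aa at chr17:34287825-34288023 on the minus strand. The B2m window ends at the base before the gene start in GENCODE M21 given below, so the start used for it differs.
H2-K1: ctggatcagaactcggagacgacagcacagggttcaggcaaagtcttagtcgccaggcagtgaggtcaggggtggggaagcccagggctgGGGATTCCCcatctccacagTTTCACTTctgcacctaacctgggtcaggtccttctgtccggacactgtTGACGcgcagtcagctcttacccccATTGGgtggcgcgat
H2-Q10: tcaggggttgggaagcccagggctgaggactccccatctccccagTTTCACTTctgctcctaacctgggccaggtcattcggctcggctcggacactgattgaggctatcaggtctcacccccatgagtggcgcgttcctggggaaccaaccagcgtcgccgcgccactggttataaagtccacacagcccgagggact
B2m: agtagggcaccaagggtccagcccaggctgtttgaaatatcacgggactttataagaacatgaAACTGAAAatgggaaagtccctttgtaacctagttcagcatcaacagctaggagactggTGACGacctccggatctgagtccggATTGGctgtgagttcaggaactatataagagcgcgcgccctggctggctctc
H2-Aa: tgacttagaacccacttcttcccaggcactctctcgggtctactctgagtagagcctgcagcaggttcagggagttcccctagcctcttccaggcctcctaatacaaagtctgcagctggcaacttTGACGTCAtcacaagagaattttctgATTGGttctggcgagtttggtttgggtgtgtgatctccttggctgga

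All 4 motifs were found before H2-K1, in the order NF-kB type, interferon response core, X2 core and Y box towards the start. B2m held 3 of them, without the letters of the NF-kB type. In H2-Q10 the interferon response core was the only match, and the letters of the other motifs are not in its window. The H2-Aa window held the Y box and overlapping matches to the X2 core on both strands. The windows of H2-D1, Tap1 and H2-Eb1 were also searched, and those of H2-D1 and Tap1 lie on annotated exons and are not printed. H2-D1 held all 4 motifs, Tap1 the X2 core alone and H2-Eb1 the Y box alone. Among 32851 such windows in the table, 29.3% held the Y box, 15.6% the X2 core, 17% the interferon response core and 0.21% the NF-kB type motif. The table held 6 of the 9 genes, without Tap2, H2-Ab1 and Cd74. A match describes letters and does not show that a factor binds there.

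Smn1, the gene targeted in these mice, had an FPKM of 10.4, 8.64 and 11.9 in the control libraries (replicates 1 to 3, in this order throughout) and of 8.48, 9.30 and 11.1 in the SMA libraries. The groups overlapped. The knockout allele of this line lacks exon 7 and the FPKM covers all exons, so the gene's level does not check the labels, and the libraries are called by their labels. Estimated depth ranged from 1 to 1.16 times that of SMA replicate 1, and depth in reads is unknown. Markers of neurons were abundant in all libraries, with Meg3 between 675 and 978 FPKM.

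Control replicate 2 stood apart. It held RNA of liver genes, with Alb, the plasma protein albumin, at 15894 FPKM against 24.6 to 56.2 FPKM in the other 5 libraries. Since 8 of the 9 antigen presentation genes had their highest FPKM in this library, the log2 differences of the genes that passed the minimum for testing, and the medians of the pathway lists, are given with and without it. For comparison, 24.7% of the 17088 genes tested were highest in control replicate 2. In 6 of the 9 genes its FPKM was over 2 times the mean of the other libraries, against 10.9% of the genes tested. The 9 genes include H2-Aa and H2-Eb1, which were not tested, while both shares cover tested genes only.

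**Figure D1:**
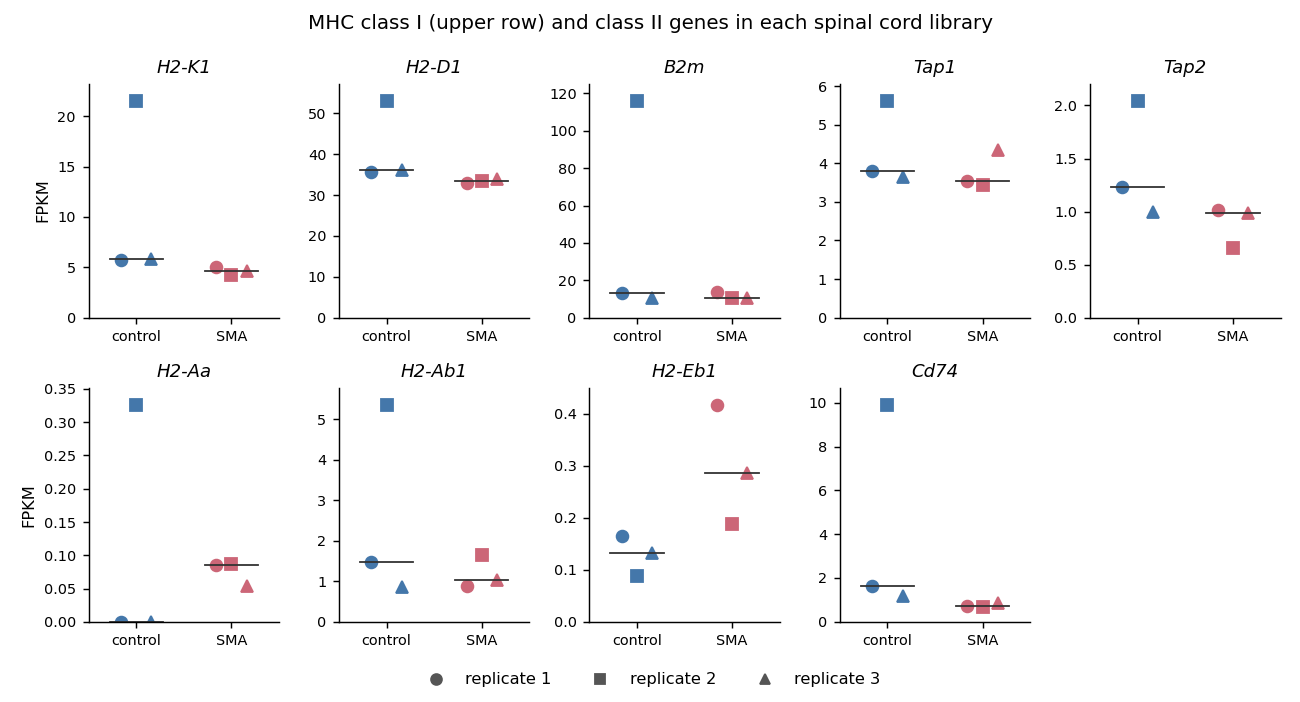
FPKM of each gene in each library, with class I genes in the upper row and class II genes in the lower row, control in blue and SMA in red, a symbol for each replicate and a line at the group median. Control replicate 2 is highest for 8 of 9 genes, and H2-Eb1 is the exception.

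Among class I heavy chains, H2-D1 was the more abundant. Its level was 35.5, 53.0 and 36.1 FPKM in control and 32.8, 33.5 and 33.9 FPKM in SMA. Every SMA library was below every control library, by a small margin to control replicates 1 and 3. The difference in log2(FPKM + 1) was -0.28 (95% CI -0.67 to 0.11), with an adjusted p of 0.683 from limma. Without control replicate 2 it was -0.10 (95% CI -0.23 to 0.04), with an adjusted p of 0.593 from limma.

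H2-K1, the other classical heavy chain, was at 5.74, 21.5 and 5.78 FPKM in control and 5.05, 4.28 and 4.64 FPKM in SMA. Again no SMA library reached the lowest control library, and control replicate 2 was far above all others. The mean was 11.01 ± 9.10 FPKM in control and 4.66 ± 0.386 FPKM in SMA (SD, n = 3 each). The log2 difference was -0.84 (SE 0.46, 95% CI -1.94 to 0.26), with an adjusted p of 0.683 from limma. It shrank to -0.26 (SE 0.11, 95% CI -0.52 to 0.0036) without control replicate 2, with an adjusted p of 0.486 from limma. For H2-D1 and H2-K1 the exact permutation p was 0.1, the smallest that 3 libraries against 3 allow.

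The balance between these heavy chains also changed in control replicate 2. H2-D1 was 2.46 times H2-K1 there, and 6.19 to 7.84 times H2-K1 in the other 5 libraries. H2-K1 was 4.22 times the mean of the other libraries in control replicate 2, while H2-D1 was 1.54 times that mean. The heavy chains are near-identical in parts and the mice carry another haplotype than the reference, so reads could be split between them, which was not tested.

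B2m, which pairs with these heavy chains, was 8.38 times the highest other library in control replicate 2, the largest such ratio of the 9 genes. It was at 13.02, 116 and 10.2 FPKM in control and 13.8, 10.4 and 10.5 FPKM in SMA. Apart from control replicate 2, the groups overlapped and their means were 11.6 FPKM in both. The log2 difference of -1.08 (95% CI -3.10 to 0.94) became -0.0081 (95% CI -0.35 to 0.34) without that library. B2m was 1.56 times the sum of H2-D1 and H2-K1 in control replicate 2 and 0.245 to 0.365 times that sum elsewhere. The files give B2m the span chr2:122120108-122186189, wider than the gene, and how fragments were divided within it was not tested.

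Tap1 was at 3.80, 5.62 and 3.64 FPKM in control and 3.54, 3.45 and 4.35 FPKM in SMA. The groups overlapped, and the log2 difference of -0.15 (95% CI -0.56 to 0.26) turned to 0.01 (95% CI -0.30 to 0.32) without control replicate 2. Tap2, its partner in the transporter, was at 1.23, 2.04 and 0.997 FPKM in control and 1.02, 0.656 and 0.983 FPKM in SMA, where SMA replicate 1 lay above control replicate 3. The log2 difference was -0.34 (95% CI -0.84 to 0.15), or -0.17 (95% CI -0.54 to 0.21) without control replicate 2. The files give Tap1 a span shared with Psmb9 and Tap2 a span shared with Psmb8, and how fragments were divided between these neighbours was not tested.

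Class II chains had lower levels than the class I heavy chains. H2-Ab1, the beta chain of the A molecule, was at 1.49, 5.35 and 0.853 FPKM in control and 0.887, 1.64 and 1.03 FPKM in SMA. SMA replicate 2 lay above control replicates 1 and 3. The log2 difference of -0.51 (95% CI -1.58 to 0.56) turned to 0.01 (95% CI -0.47 to 0.49) when control replicate 2 was left out.

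Its partner H2-Aa, the alpha chain, was not listed in control replicates 1 and 3 and was at 0.326 FPKM in control replicate 2. The SMA libraries had 0.0860, 0.0867 and 0.0541 FPKM. The SMA values lie between the 0 of these control replicates and control replicate 2, and the gene was below the minimum mean of 0.5 FPKM for testing.

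H2-Eb1, the beta chain of the E molecule, was the exception among the 9 genes. It was at 0.165, 0.0887 and 0.133 FPKM in control and 0.416, 0.189 and 0.285 FPKM in SMA. All SMA libraries lay above all control libraries, and control replicate 2 was the lowest of all. It too was below the minimum for testing, and in a fit with no minimum the log2 difference was 0.20 (95% CI 0.0090 to 0.38), with an adjusted p of 0.737 from limma. In that fit 8.82% of 25576 genes were higher in every SMA library than in every control library, and 3.45% were higher at an unadjusted p under 0.05, as H2-Eb1 was. H2-Ea-ps, the pseudogene of its alpha partner in the reference, was listed only in control replicate 2, at 0.168 FPKM; it was named after its values were seen.

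Cd74, the chaperone of class II chains, was at 1.64, 9.90 and 1.16 FPKM in control and 0.708, 0.694 and 0.852 FPKM in SMA. Every SMA library was below every control library. The mean was 4.23 ± 4.91 FPKM in control and 0.751 ± 0.0872 FPKM in SMA (SD, n = 3 each). The log2 difference was -1.18 (SE 0.58, 95% CI -2.57 to 0.21), with an adjusted p of 0.683 from limma and an exact permutation p of 0.1. Without control replicate 2 it was -0.45 (SE 0.16, 95% CI -0.82 to -0.08), with an adjusted p of 0.418 from limma. In that fit Cd74 was the member with an unadjusted p under 0.05, as were 5.2% of 16574 genes in the lower and 5.27% in the higher direction. Such a p was also reached by Cd74 with a pseudocount of 0.1 (log2 difference -1.72) and without control replicate 3 (log2 difference -1.62). In these fits, 468 of 17088 and 712 of 17131 genes were lower in SMA at such a p. The ratio of Cd74 to H2-Ab1 was 1.10, 1.85 and 1.37 in control and 0.798, 0.423 and 0.827 in SMA.

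Across the 9 genes, 7 were tested and 0 passed an adjusted p under 0.05 in limma. That was so for 0% of all 17088 genes tested, and the smallest adjusted p was 0.683. At an unadjusted p under 0.05, 0 of the 7 passed, against 409 genes (2.39%) that were lower in SMA and 581 (3.4%) that were higher. H2-K1, H2-D1 and Cd74, 3 of the 7, were lower in every SMA library than in every control library. The same held for 6.67% of the genes tested, and 10.3% were higher in every SMA library. Without control replicate 2, 13.9% of 16574 genes were lower in every SMA library, and 0.0121% passed an adjusted p under 0.05.

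The median log2 difference was -0.34 over the 5 class I genes and -0.85 over H2-Ab1 and Cd74, the class II genes tested. Over all genes tested it was 0.04. Without control replicate 2 the medians were -0.10, -0.22 and 0.00163. In bulk tissue, fewer cells of a type and less RNA per cell cannot be told apart, and this applies to each of these differences.

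**Figure D2:**
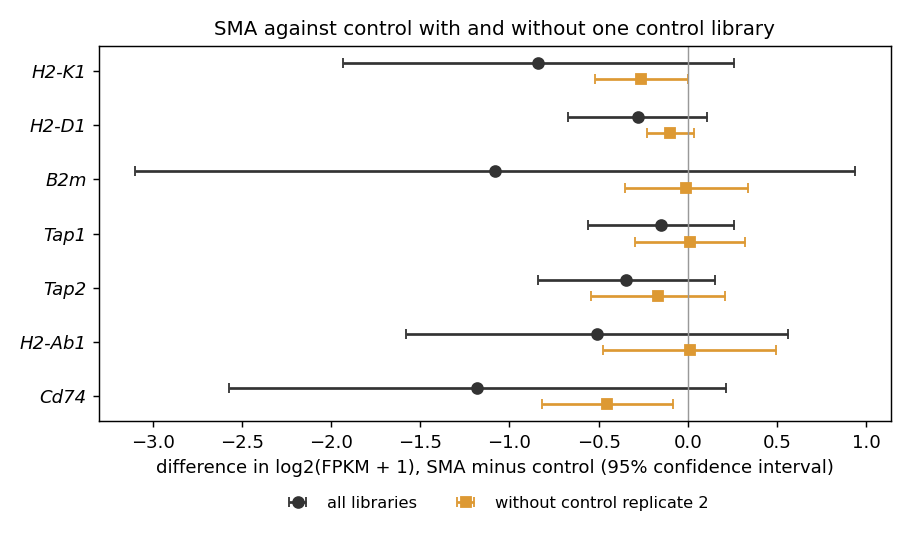
Difference in log2(FPKM + 1) between SMA and control for the 7 genes tested, with 95% confidence intervals from limma, over all libraries (black) and without control replicate 2 (orange). Without that library the estimates lie closer to 0, and only the interval of Cd74 leaves out 0.

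In the 5 libraries other than control replicate 2, the order of levels was H2-D1, B2m, H2-K1, Tap1, H2-Ab1, Cd74, Tap2, H2-Eb1 and H2-Aa. Their means were 34.4, 11.6, 5.10, 3.76, 1.18, 1.012, 0.977, 0.237 and 0.0454 FPKM. Ranges over these libraries were separate for H2-D1, B2m and H2-K1. H2-K1 (4.28 to 5.78 FPKM) and Tap1 (3.45 to 4.35 FPKM) touched, and the ranges of H2-Ab1, Cd74 and Tap2 overlapped. Of the 9 genes, 7 lie in the MHC between H2-K1 (chr17:33996017-34000347) and H2-D1 (chr17:35262730-35267499) in GENCODE M21 on GRCm38, with B2m at chr2:122147686-122153083 and Cd74 at chr18:60803848-60812652. The class I heavy chains H2-D1 and H2-K1 summed to 19.7 to 42.4 times the summed class II chains in these libraries and to 12.9 times in control replicate 2.

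The wider family of class I heavy chains showed the same library apart. Of 26 genes on this list, 22 were in the files and 16 were tested. At an unadjusted p under 0.05, 0 were lower and 0 higher, and the median log2 difference was -0.39, or -0.10 over 13 genes tested without control replicate 2. H2-Q10, H2-T22 and H2-T24 reached the minimum for testing only through that library, so these medians cover different genes. Their log2 differences with all libraries were -1.78, -0.13 and -0.70. By the mean of all 6 libraries the most abundant genes were H2-D1, H2-Q10 and H2-K1, but the rank of H2-Q10 rests on control replicate 2, and its mean in the other libraries was 0.239 FPKM. H2-Q10 was at 0.423, 47.0 and 0.0942 FPKM in control and 0.278, 0.215 and 0.187 FPKM in SMA. It was 196 times the mean of the other libraries in control replicate 2, and it is the class I gene whose printed window held a single motif. Of the 22 genes in the files, 15 were highest in control replicate 2, against 24.7% of all genes tested, while H2-Q2 and H2-M5 were lowest there. The 22 genes include some below the minimum for testing, which that share leaves out. The summed FPKM of the list was 178 in control replicate 2, with 53.0 from H2-D1 and 47.0 from H2-Q10, and 54.8 to 63.8 elsewhere.

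On the list of class I peptide loading, all 9 genes were tested, of which 1 was lower in SMA and 0 were higher by an unadjusted p under 0.05, against 2.39% and 3.4% of all genes tested. The median log2 difference was -0.31, or -0.13 without control replicate 2. Calr, a chaperone of the loading complex, was at 109, 122 and 113 FPKM in control and 114, 110 and 108 FPKM in SMA. Canx, which helps heavy chains fold, was at 111, 109 and 114 FPKM in control and 96.6, 104 and 108 FPKM in SMA, and the groups did not overlap. Pdia3, a disulphide isomerase of the loading complex, was at 59.5, 68.8 and 58.3 FPKM in control and 52.8, 50.9 and 50.0 FPKM in SMA. Pdia3 was the gene that passed, with a log2 difference of -0.27 (95% CI -0.51 to -0.03) and an adjusted p of 0.683 from limma. Without control replicate 2 the difference was -0.20, with an adjusted p of 0.359 from limma. In 3 of the 9 genes, Canx, Pdia3 and Tapbp, every SMA library was below every control library, as in 6.67% of the genes tested. Calr and Canx also help other glycoproteins fold.

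The immunoproteasome, which cuts proteins into peptides for class I, had 5 genes, all tested, with 0 lower and 0 higher by an unadjusted p under 0.05. The median log2 difference of -0.27 shrank to -0.09 without control replicate 2. Psme1 and Psme2, the subunits of its activator, ranged from 38.6 to 49.5 FPKM and from 11.9 to 26.0 FPKM. Both were highest in control replicate 2. Psmb10, a catalytic subunit, ranged from 6.89 to 8.47 FPKM, with overlapping groups.

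The list of class II chains and loading genes held 16 symbols, of which 14 were in the files and 6 were tested. The symbols not found were H2-Ea and Marchf1, other names for H2-Ea-ps and March1, which were found. At an unadjusted p under 0.05, 0 were lower and 0 higher, and without control replicate 2 there was 1 in each direction, Cd74 lower and March1 higher, against 5.2% and 5.27% of all genes in that fit. The median log2 difference was -0.18, and 0.06 without that library. March1, a ubiquitin ligase that brings class II molecules down from the surface, was at 20.2, 12.6 and 19.9 FPKM in control and 23.8, 23.4 and 23.2 FPKM in SMA. All SMA libraries were higher, as for 10.3% of the genes tested, or 14.2% without control replicate 2. The log2 difference was 0.43 (95% CI -0.0027 to 0.86), or 0.22 without control replicate 2, with adjusted p of 0.683 and 0.360 from limma. Ctss, the protease that trims Cd74, ranged from 9.20 to 15.7 FPKM, and Ifi30, a thiol reductase of endosomes, from 3.75 to 8.75 FPKM, both with overlapping groups and the highest value in control replicate 2.

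Of 13 MHC transcriptional regulators, 11 were tested, of which 1 was lower in SMA and 0 were higher by an unadjusted p under 0.05, against 2.39% and 3.4% of all genes tested. The median log2 difference of -0.03 turned to 0.04 without control replicate 2. The gene that passed was Irf1, a transcription factor that binds interferon response elements of class I genes. Irf1 was at 1.66, 4.68 and 2.38 FPKM in control and 0.955, 0.951 and 1.17 FPKM in SMA. The log2 difference was -0.88 (95% CI -1.55 to -0.20), with an adjusted p of 0.683 from limma. It was -0.57 without control replicate 2, with an adjusted p of 0.360 from limma. Every SMA library was below every control library, as in 6.67% of the genes tested. Rfx5 of this list went the other way, as did 10.3% of the genes tested. Creb1 (15.0 to 17.2 FPKM), Nfyc (13.8 to 16.8 FPKM) and Nfyb (8.87 to 14.4 FPKM), whose proteins bind the X2 and Y boxes, overlapped between groups.

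Interferon receptors and their kinases gave 7 tested genes of 8, with 0 lower and 0 higher by an unadjusted p under 0.05. Without control replicate 2, 1 was lower, Ifnar1, against 5.2% of all genes in that fit. The median log2 difference of 0.0010 turned to -0.03 without that library. Jak1 ranged from 33.3 to 39.2 FPKM and Ifngr2, a chain of the interferon gamma receptor, from 15.7 to 23.7 FPKM, with overlapping groups. Ifnar1, a chain of the type I receptor, was at 27.5, 25.9 and 26.2 FPKM in control and 24.8, 22.96 and 22.99 FPKM in SMA. Its groups did not overlap, nor did those of Ifngr1, both with SMA lower, as in 6.67% of the genes tested. The log2 difference of Ifnar1 was -0.16, or -0.18 (95% CI -0.34 to -0.02) without control replicate 2, with adjusted p of 0.683 and 0.437 from limma.

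Receptors of MHC molecules and costimulatory genes were scarce, with 3 of 10 tested. Of these 1 was lower in SMA and 0 were higher by an unadjusted p under 0.05, against 2.39% and 3.4% of all genes tested, and the median log2 difference was -0.30, or -0.11 without control replicate 2. Cd40, a costimulatory receptor of antigen-presenting and endothelial cells, was at 0.970, 1.17 and 0.998 FPKM in control and 0.669, 0.328 and 0.369 FPKM in SMA. The log2 difference was -0.50 (95% CI -0.91 to -0.09), and -0.45 without control replicate 2, with adjusted p of 0.683 and 0.432 from limma. Cd86 (0.448 to 1.69 FPKM) and Lag3 (0.394 to 0.846 FPKM) overlapped between groups.

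**Figure D3:**
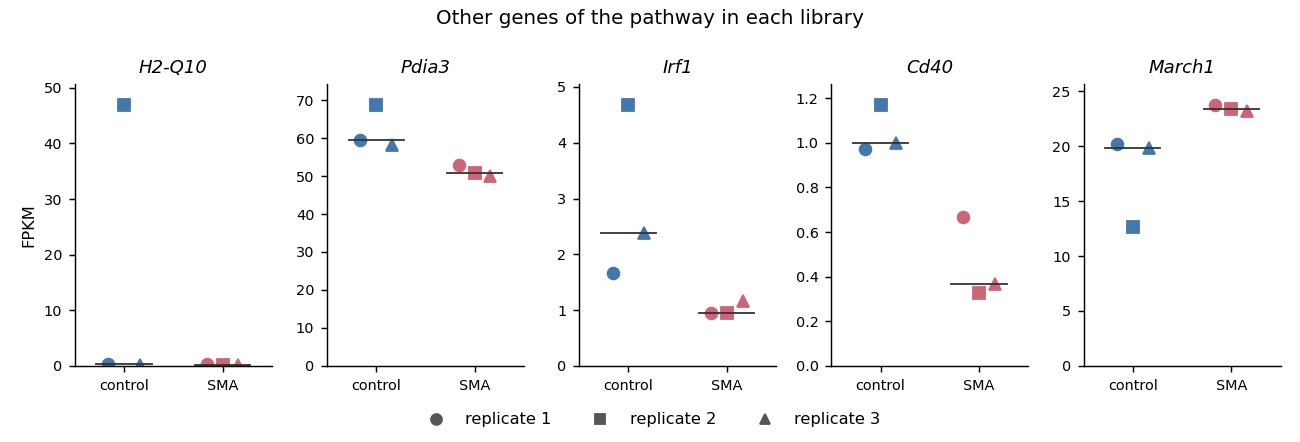
FPKM of 5 further genes in each library, with symbols for replicates and lines at the group medians. H2-Q10 reached 47.0 FPKM in control replicate 2 alone, Pdia3, Irf1 and Cd40 were lower in every SMA library than in every control library, and March1 was higher. Of all genes tested, 6.67% were lower in this way and 10.3% were higher.

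Markers of other cells were compared by library, since class I and II genes differ between cell types. All 12 hepatocyte markers were highest in control replicate 2, with a summed FPKM of 26372 there and 43.3 to 95.5 elsewhere. Kupffer cell markers, of the macrophages of the liver, summed to 39.5 FPKM there and to 0.104 to 0.246 FPKM elsewhere, and all 5 were highest there. Their most abundant gene Marco was at 12.3 FPKM in control replicate 2 and at 0 in SMA replicates 1 and 2.

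Blood cell and border macrophage markers were also highest there. Monocyte and neutrophil markers summed to 425 FPKM in control replicate 2 and to 5.60 to 11.7 FPKM elsewhere, led by S100a8 at 205 FPKM, with 9 of 9 highest there. Erythroid markers summed to 18844 FPKM there and to 1115 to 1863 FPKM elsewhere, led by Hbb-bs, with 8 of 8 highest there. Border macrophage markers, led by Pf4, summed to 37.3 FPKM there and to 3.08 to 8.37 FPKM elsewhere, with 7 of 7 highest there.

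Lymphocyte markers were near 0 in most libraries. T cell markers, led by Trbc2, summed to 2.84 FPKM in control replicate 2 and to 0.274 to 0.641 FPKM elsewhere, and Cd3d and Cd3e were at 0 outside it. Of B cell genes, Cd79b was at 1.37 FPKM there and 0.0910 to 0.255 FPKM elsewhere. Pax5, which is also expressed by spinal interneurons, was at 0.590 FPKM there and 0.456 to 2.01 FPKM elsewhere. Dendritic cell markers, led by Zbtb46, summed to 11.1 FPKM there and to 11.6 to 12.9 FPKM elsewhere. Zbtb46 and Flt3 made up most of this sum, while Clec9a was at 0.495 FPKM there and 0 to 0.0553 FPKM elsewhere, and Xcr1 was at 0 outside it.

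Resident microglia can make class II and Cd74, and their markers differed in how control replicate 2 stood. P2ry12 was at 12.045 FPKM there and 12.7 to 19.2 FPKM elsewhere, and Trem2 at 0.800 FPKM there and 2.86 to 4.32 FPKM elsewhere. Cx3cr1, at 8.59 FPKM, lay within the 8.27 to 11.2 FPKM of the other libraries, while Csf1r, at 17.05 FPKM, was above their 9.97 to 11.7 FPKM. Neurons, led by Meg3, summed to 1195 FPKM there and to 1408 to 1731 FPKM elsewhere. Meg3 was 0.923 times the mean of the other libraries there, and the other neuron markers 0.4475 (Slc32a1) to 0.624 (Rbfox3) times that mean. Of the 7 neuron markers, 4 were higher in every SMA library than in every control library, against 10.3% of the genes tested. By an unadjusted p under 0.05, 0 of the 7 were higher in SMA, and 3 were without control replicate 2, against 5.27% of genes in that fit. Motor neuron markers, led by Prph, summed to 39.3 FPKM against 58.1 to 88.3 FPKM, and astrocyte markers, led by Gfap, to 470 FPKM against 530 to 589 FPKM. The astrocyte marker Aldh1l1 went the other way, at 48.4 FPKM in control replicate 2 and 24.4 to 27.9 FPKM elsewhere. The oligodendrocyte lineage, led by Mbp, gave 720 FPKM in control replicate 2 and 591 to 1086 FPKM elsewhere. In each of these lists 1 marker was lower in SMA by an unadjusted p under 0.05 without control replicate 2, and 0 were higher. They were Slc5a7 (motor neurons), Aqp4 (astrocytes) and Pdgfra (oligodendrocyte lineage), against 5.2% of genes lower in that fit. The part of liver and blood cells in the antigen presentation values of control replicate 2 was not tested.

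**Figure D4:**
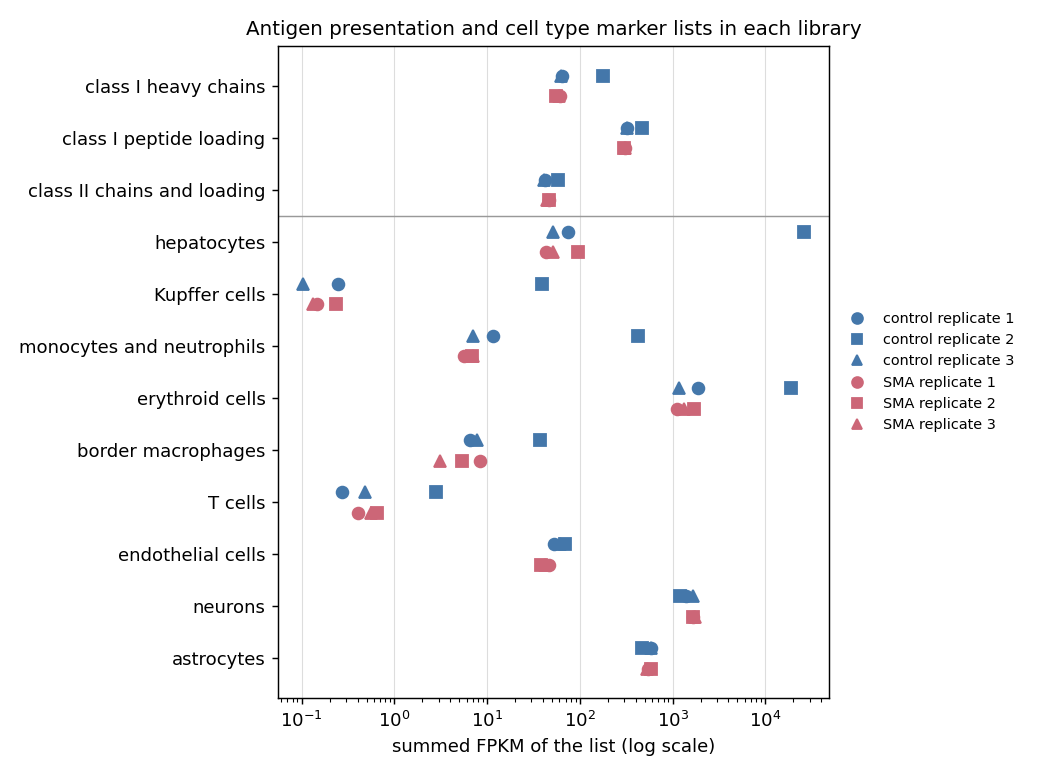
Summed FPKM of 3 antigen presentation lists (above the line) and 9 marker lists in each library, on a log scale, control in blue and SMA in red with a symbol for each replicate. Control replicate 2 stands apart for hepatocyte, Kupffer, myeloid and erythroid markers, and lies below the others for neurons and astrocytes.

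Endothelial cells carry class I molecules, and 2 of their 6 markers, Cldn5 and Pecam1, were lower in SMA by an unadjusted p under 0.05. This was so with and without control replicate 2, against 2.39% and 5.2% of genes in these fits. The other markers overlapped between groups. Their log2 differences were -0.74 (Cdh5), -0.39 (Egfl7), -0.12 (Flt1) and 0.03 (Ly6c1). Without that library these were -0.49, -0.05, -0.09 and 0.08. Over the 6 markers the median was -0.47, or -0.26 without that library. The 6 markers summed to 52.0, 68.7 and 60.3 FPKM in control and to 47.0, 38.1 and 41.8 FPKM in SMA. Cldn5, the most abundant of them and a tight junction protein, was at 25.8, 20.4 and 25.0 FPKM in control and 16.4, 15.7 and 14.4 FPKM in SMA. It did not share the high value of control replicate 2, and its log2 difference was -0.58, or -0.68 without that library, with adjusted p of 0.683 and 0.108 from limma. Fibroblast markers of vessels and meninges, led by Col1a2, summed to 161, 168 and 145 FPKM in control and to 176, 74.8 and 33.7 FPKM in SMA, so that they varied within SMA. Of 5 markers 1, Lum, was lower in SMA by an unadjusted p under 0.05, and 0 were without control replicate 2, against 2.39% and 5.2% of genes in these fits. Their median log2 difference was -1.09, or -0.87 without that library, and all overlapped between groups. The part of these cells in the lower H2-K1, H2-D1, Cd74 and Cd40 values was not tested.

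Genes with the most similar pattern were sought by the largest absolute difference, over the 6 libraries, in log2(FPKM + 1) centred on its mean. Nearest to H2-K1 among 11163 genes were Prdx1, H2afx and Hist1h2al, within 0.12, 0.14 and 0.14. Nearest to Cd74 among 14791 genes were Slc40a1, Car2 and Oaf, within 0.18, 0.18 and 0.19. All of these genes were highest in control replicate 2, so the likeness rests largely on that library, and the search was not repeated without it. Prdx1 was at 56.0, 176 and 52.2 FPKM in control and 48.1, 45.5 and 42.6 FPKM in SMA, and Slc40a1, the iron exporter, was at 7.91, 45.2 and 7.28 FPKM in control and 5.71, 5.51 and 5.25 FPKM in SMA.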

How the data were processed

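Total RNA of spinal cord was depleted of ribosomal RNA and sequenced from strand-specific libraries. The authors aligned reads with HISAT2 (mm10 in the submitters' processing notes) and deposited FPKM per gene from Cufflinks; versions and whether counting used strand are not given in the sources used here. A gene absent from a library was set to 0. Of the 25576 identifiers, 25408 (99.3%) were in GENCODE M21.

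FPKM were transformed to log2(FPKM + 1), so that changes of low genes are understated. The 17088 genes whose mean reached 0.5 FPKM were compared between 3 SMA and 3 control libraries with limma 3.58.1 (lmFit, eBayes with a trend) in R 4.3.3, two-sided, without covariates, and all their p-values were adjusted together by the Benjamini-Hochberg method. The study's methods compare read counts, which were not used here. Single genes were also compared by exact permutation, with a smallest p of 0.1. The procedure was tested on simulated data with equal noise in all libraries, so without a library that stood apart as control replicate 2 does.

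Named genes are the 9 members; the 3 most abundant of each pathway list and those at an unadjusted p under 0.05 with groups that do not overlap; the most abundant of each marker list, save 1 list; and the 3 genes most alike H2-K1 and Cd74, among genes with at least 0.5 times their mean. Others were named after their values were seen. For the microglia and B cell lists the sums are not reported here. Members and lists were chosen with earlier results of these data known. Alternatives were a pseudocount of 0.1, no minimum, a minimum of 1, median ratio scaling, quantile normalization, eBayes with the robust option, a block for the replicate number, and each library left out.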

Additional observations from a re-analysis of the deposited data

How the results depend on the processing

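With limma, 0 genes passed an adjusted p under 0.05 in all settings that kept every library, and 0 to 2 when each library was left out in turn. Genes lower in SMA at an unadjusted p under 0.05 numbered 409 and ranged from 125 to 862 with a library left out. Genes higher in SMA numbered 581, and ranged from 214 to 1040 with a library left out. With no minimum FPKM 882 genes were higher, over more genes tested, and with the replicate block 356 were. The replicate numbers gave no sign of pairing. Deviations of same-numbered libraries correlated at -0.037, 0.0161 and 0.0766, and not every library correlated best with its own number, so the block is shown only here. These values rest on 3 libraries per group, with control replicate 2 apart, and pairing was not tested otherwise.

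Among the antigen presentation genes, Tap1 and H2-Ab1 turned direction, each only without control replicate 2, to 0.0133 and 0.0111. With a library left out, Tap1 ranged from -0.24 to 0.0133, H2-Ab1 from -0.88 to 0.0111, B2m from -1.70 to -0.0081, H2-K1 from -1.13 to -0.26, H2-D1 from -0.38 to -0.10, Tap2 from -0.47 to -0.17 and Cd74 from -1.62 to -0.45. For B2m and Cd74 the lowest values came without control replicate 3. The unadjusted p of Cd74 was under 0.05 without control replicate 2 or 3 and with a pseudocount of 0.1. H2-K1, H2-D1, B2m, Tap2 and Cd74 had a log2 difference below 0 in every setting run, without reaching an adjusted p under 0.05 in any. The median over class I genes ranged from -0.59 to -0.10 and that over class II genes from -1.25 to -0.22 over all settings. The class II median was -0.27 with no minimum, where H2-Aa and H2-Eb1 were added. The cause of the changes without control replicate 2 was not tested. Depth in reads is unknown, and values near 0, as for H2-Aa and H2-Eb1, have an error that was not measured.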
